A study of Drosophila melanogaster with 29 samples.

Results

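The experiment described here is the overexpression of Mnn1 in Drosophila melanogaster embryos of the 6-8 h collection window. Its members were chosen from array titles alone: all arrays that set mnn++ embryos of that window against a control, which are 4 of the 29 arrays of the series. The mnn++ embryos carried the full-length Mnn1 cDNA behind the yeast GAL4 UAS promoter, inserted by P-element transgenesis. Their controls carried the same driver without that construct, so driver expression is shared by both sides of every array. The labels call the controls cntrl1 and cntrl2 and give neither the difference between them nor the name or tissue range of the driver. Parents were reared at 25 °C for 3 to 5 days after eclosion and mated. Poly(A) RNA of whole embryos was labelled with Cy3 or Cy5. Array 74 (mnn++ in Cy3) and array 83 (mnn++ in Cy5) compared mnn++ with cntrl1, and arrays 75 (Cy3) and 88 (Cy5) compared it with cntrl2. The other embryo arrays cover 2-4, 4-6 and 2-16 h with 4 mnn++ arrays each. They were used here only to estimate spread, to show other times and, for 2-4 and 4-6 h, to contrast with 6-8 h.

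Menin, the product of Mnn1 and the fly counterpart of the human MEN1 tumour suppressor, has no recognised enzymatic activity of its own. It is known as a scaffold that joins trithorax-group complexes which methylate lysine 4 of histone H3, a mark of active promoters, and as a binding partner of AP-1 factors downstream of JNK signalling. At the age sampled, fly embryos pass through the extended germ band and begin to retract it: neuroblasts divide, myoblasts and tracheal cells are specified, and most maternal RNA has been replaced by zygotic RNA.

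Values are log2 ratios of mnn++ over control, where 1 means doubling of signal. The deposited sign was reversed to give this direction, which no label states and which is therefore likely only. The basis was the Cy5 over Cy3 convention of limma together with a positive Mnn1, so the sign of Mnn1 is no independent check. A spot that names no gene, 12320, fixed the orientation of dye swaps: it read 2.77 and 2.63 against cntrl2 in opposite labellings, and -0.03 and -0.20 against cntrl1. Each array was centred, with medians from -0.004 to 0.005 and SDs over spots from 0.176 (array 83) to 0.243 (array 88). Dye bias was visible on all of them. Over spots, arrays of opposite labelling had r = -0.222 against cntrl1 and -0.099 against cntrl2, while arrays of the same labelling, which share the mnn++ side, had r = 0.355 (Cy3) and 0.331 (Cy5). Spots are not independent replicates. Labellings were therefore averaged first, which leaves 1 value per control and 2 in all. Nothing says that arrays came from separate cultures or extracts, so p-values measure only the spread between these samples. The fit takes its spread from how far cntrl1 and cntrl2 lie apart within each window, which can hold real differences between them as well as technical ones.

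The first question was how far Mnn1, the gene that the construct carries, differed between mnn++ and control embryos. The sign of all arrays was turned partly so that Mnn1 is positive, so its direction was an input and not a result. With that sign, Mnn1 read slightly higher in mnn++ embryos than in controls at 6-8 h, on both of its spots. Spot 12064 read 0.13 (mnn++ in Cy3) and 0.27 (mnn++ in Cy5) against cntrl1, and 0.16 and 0.42 against cntrl2. Spot 12724 read -0.04 and 0.36 against cntrl1, and 0.22 and 0.44 against cntrl2. All but 1 of these readings were above 0, and in each pair the Cy5 labelling gave the higher one. The means over the controls were 0.24 ± 0.09 and 0.25 ± 0.08, and limma gave both an adjusted p of 0.913. The SE, here and below, is that of the limma fit, which pools the spread over all windows. The difference was therefore not past the threshold of 0.05. With the spots averaged, Mnn1 stood at 0.08 at 2-4 h, 0.11 at 4-6 h, 0.24 at 6-8 h and 0.59 in the broad 2-16 h collection, with 2, 3, 4 and 4 of 4 arrays above 0.

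Between mnn++ and control embryos at 6-8 h no spot reached a limma adjusted p under 0.05, that is 0 of 30377 spots or 0%. The lowest adjusted p was 0.121, for a spot of LysE, and 5 spots were under 0.25. The unadjusted p was under 0.05 for 1588 spots, 818 higher and 770 lower in mnn++, where 1519 are expected with no change at all. The ratios were small: the median absolute log2 value was 0.0558 against the mean of the controls, and the median SE was 0.0758. All 4 arrays were above 0 for 1654 spots (5.44%) and below 0 for 1534 (5.05%). Counted by gene, with spots averaged, those shares were 5.47% and 4.98% of 10841 genes. The genes described next are therefore the largest readings and not calls.

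The lowest p belonged to LysE, a lysozyme that digests bacterial cell walls and belongs to a cluster of near-identical copies. A spot that names LysE may also bind RNA of those copies. Spot 160 read 0.84 (mnn++ in Cy3) and 0.62 (Cy5) against cntrl1, and 0.77 and 0.42 against cntrl2. Spot 816 read 0.93 and 0.26 against cntrl1, and 0.79 and 0.72 against cntrl2. All 8 readings lay above 0, and the controls gave the same height once labellings were averaged: with both spots pooled, 0.66 against cntrl1 and 0.67 against cntrl2. The spot means were 0.66 ± 0.07 (SE, adjusted p = 0.121 by limma) and 0.67 ± 0.09 (adjusted p = 0.197). When the spots of each gene were averaged before the fit, LysE was the single gene of 10841 that passed, at 0.67 ± 0.05 and a limma adjusted p of 0.00614. That corresponds to 1.59-fold more signal in mnn++ embryos. It passed in 5 of 15 alternative fits, which share the same arrays and so are not independent. Among the 5 were that averaging of spots, single arrays as their own values, and the 2 dye-averaged 6-8 h comparisons alone. The single-array fit takes labellings of 1 pairing as replicates, and the last rests on 2 values.

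The lowest gene with agreeing spots was thw. Spot 6629 read -0.71 and -0.54 against cntrl1, and -0.99 and -0.97 against cntrl2. Spot 7305 read -0.62 and -0.48 against cntrl1, and -0.60 and -0.76 against cntrl2. Every reading was -0.48 or lower, in either labelling and against either control. The spot means were -0.80 ± 0.10 and -0.62 ± 0.09 (SE, limma adjusted p = 0.197 and 0.22), and spot 6629 passed in 4 of 15 alternative fits. Those 4 also include the single-array fit and the fit on 2 values. Peritrophin-15a, a chitin-binding protein named after the peritrophic matrix of the gut, had the highest mean. Its spot 24097 read 0.93 and 1.13 against cntrl1, and 0.55 and 0.69 against cntrl2. Its spot 24773 read 1.16 and 0.93 against cntrl1, and 0.23 and 0.62 against cntrl2. All were above 0, though less so with cntrl2: with spots pooled the log2 ratio was 1.04 over cntrl1 and 0.52 over cntrl2. The means were 0.83 ± 0.16 and 0.74 ± 0.17 (SE, limma adjusted p = 0.758 and 0.903).

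Past 1.5-fold (0.585 on the log2 scale) against the mean of the controls, with the same sign on all 4 arrays, stood 5 spots higher (0.0165%) and 4 spots lower (0.0132%). The higher ones were both spots of LysE, both of Peritrophin-15a and spot 18923, which names no gene. The lower ones were both spots of thw and a spot each of gek and Gal. Those last 2 rested on a single array. Spot 9016 of gek, a kinase that acts under the GTPase Cdc42, read -4.07 on array 75 but -0.05, -0.06 and -0.26 on the others, and its other spot averaged -0.07. Spot 20103 of Gal, a beta-galactosidase, read -2.13 on array 83 and from -0.16 to -0.03 on the others, with its other spot at -0.01.

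**Figure D1:**
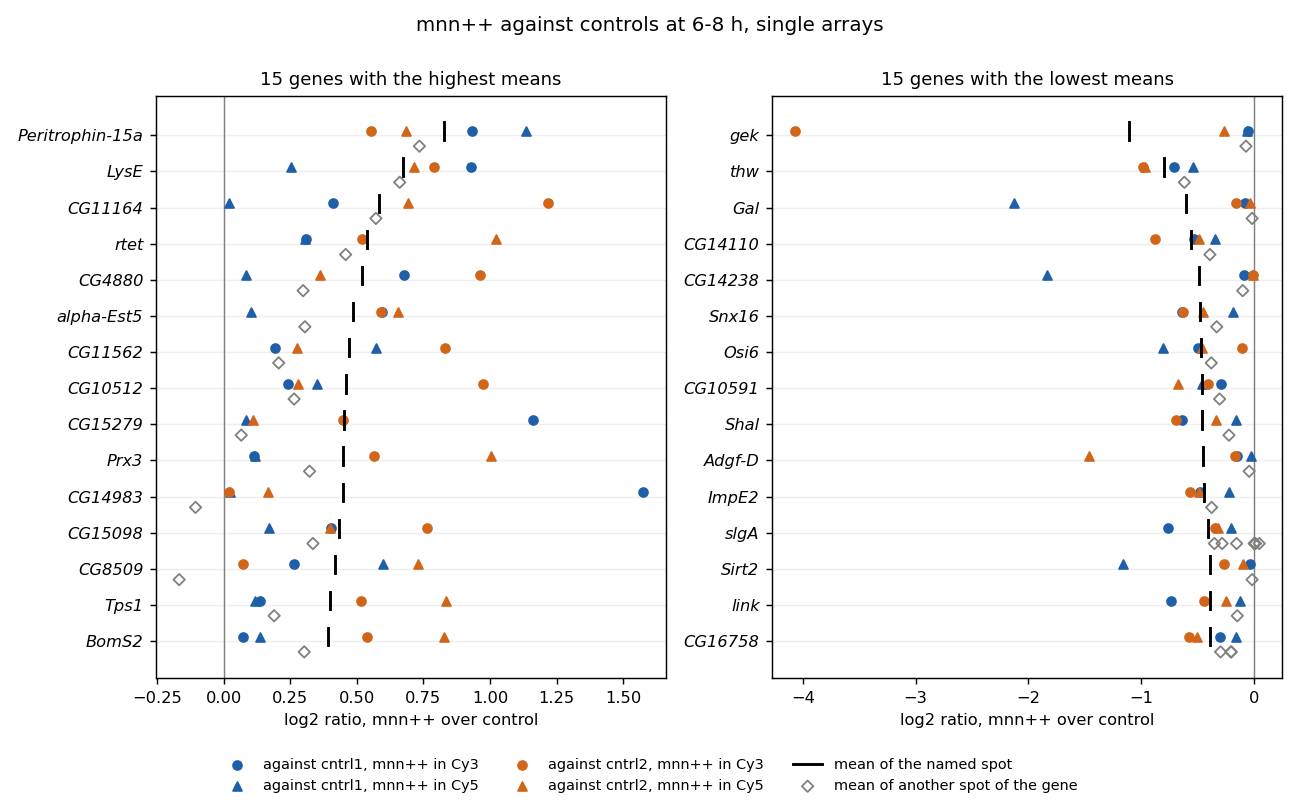
Log2 ratio of mnn++ over control (horizontal axis) on each of the 4 arrays for the 15 genes with the highest means and the 15 with the lowest, 1 spot per gene. Circles are arrays with mnn++ in Cy3, triangles with mnn++ in Cy5, blue against cntrl1 and orange against cntrl2; black bars mark the spot's mean and grey diamonds the means of the gene's other spots. All 4 arrays of every spot shown lie on 1 side of 0 because the naming rule required it. LysE, Peritrophin-15a and thw also have the diamond past 1.5-fold on that side. By contrast, gek, Gal, CG14238, Adgf-D and CG14983 have 1 array far from the rest and a diamond near 0.

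Among the 15 genes with the highest means, from 0.39 to 0.83, none passed the test (limma adjusted p from 0.197 to 0.931). After Peritrophin-15a and LysE came CG11164 (0.58), the putative transporter rtet (0.54), CG4880 (0.52), the carboxylesterase alpha-Est5 (0.49) and CG11562 (0.47). CG10512 stood at 0.46, CG15279 at 0.45, the mitochondrial peroxiredoxin Prx3 at 0.45, and CG14983 at 0.45. CG15098 (0.43), CG8509 (0.42), the trehalose-6-phosphate synthase Tps1 (0.40) and the immune-induced peptide BomS2 (0.39) completed the group. The ratio over cntrl2 exceeded that over cntrl1 in 11 of these 15 genes, and was larger in size in 9 of the 15 lowest. Over all spots, too, ratios spread wider against cntrl2 (SD 0.1471) than against cntrl1 (SD 0.1150). The second spot had the same direction in 13, was positive on all 4 arrays in 8, and passed 1.5-fold itself in 2, LysE and Peritrophin-15a. CG14983 rested on array 74 (1.57, against 0.03, 0.02 and 0.17 elsewhere), and its other spot averaged -0.11. The other spot of CG8509 averaged -0.17, and that of CG15279 0.07.

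The 15 genes with the lowest means ran from -1.11 for gek to -0.38 (limma adjusted p from 0.197 to 0.962). CG14110 averaged -0.56 on spot 33, with readings of -0.53 and -0.34 against cntrl1 and -0.88 and -0.49 against cntrl2, and -0.39 on its other spot, also below 0 on every array. The voltage-gated potassium channel gene Shal averaged -0.46 ± 0.07 (SE, limma adjusted p = 0.22) on spot 1029, below 0 on all 4 arrays, and -0.22 on spot 373, where 1 array read 0.08. CG10591 averaged -0.46 and -0.30, below 0 on all arrays of both spots. The sorting nexin gene Snx16 averaged -0.48 on spot 18393 and -0.33 on spot 17737. The latter read -0.85 and -0.53 with mnn++ in Cy3, but -0.04 and 0.10 with mnn++ in Cy5. The ecdysone-inducible gene ImpE2 averaged -0.44 and -0.37, negative on every array, and the Osiris family gene Osi6 -0.47 and -0.38. The proline dehydrogenase gene slgA stood at -0.41 on 1 of its 8 spots, while those 8 spots ranged from -0.41 to 0.05. The remaining genes were link (-0.39) and CG16758 (-0.38), plus 3 that hung on a single array, CG14238 (-1.84 on array 83), the adenosine deaminase relative Adgf-D (-1.47 on array 88) and the deacetylase Sirt2 (-1.16 on array 83). Other spots of those 3 averaged -0.10, -0.04 and -0.01. Of the 13 lowest genes with exactly 2 spots, 4 had a second spot below 0 on all arrays: thw, CG14110, CG10591 and ImpE2.

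Taken against cntrl1 alone, where 1 dye-averaged value has no spread of its own, 22 spots stood at least 1.5-fold higher in mnn++ (0.0724%) and 19 at least 1.5-fold lower (0.0625%) with both labellings of 1 sign. Only a few genes had every one of their spots in those counts: LysE and Peritrophin-15a on the higher side, CG7465 and Osi6 on the lower. CG7465 read -0.66 and -0.65 against cntrl1, with spots averaged, but 0.52 and 0.38 against cntrl2, so it changed sides with the control. Osi6 read -0.50 and -0.74 against cntrl1, and -0.01 and -0.44 against cntrl2. Most of the other extreme spots came from a single array. Whamy, a WASP family actin regulator, read 1.85 and 0.06 on spot 12614. Pfas, an enzyme of purine synthesis, read 0.04 and 1.73 on spot 16867, and Fibp 0.12 and 1.59. CG44433 (-2.36 and -0.14) and CG5687 (-0.12 and -1.62) were of this kind on the lower side, while pwn read -0.43 and -0.97 on spot 5799, below 0 in either labelling. The second spots of these 6 genes averaged from -0.245 (CG5687) to 0.0045 (Whamy) against cntrl1. AANATL4, a relative of arylalkylamine N-acetyltransferases, followed its label: with mnn++ in Cy3 its spot 3213 read 1.64 against cntrl1 and 1.03 against cntrl2, and with mnn++ in Cy5 0.16 and -0.40.

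The same count against cntrl2 gave 60 spots higher (0.198%) and 23 lower (0.0757%). A limma fit that took each of 16 arrays as its own value, and so the labellings of a pairing as replicates, called 33 spots higher and 22 lower against cntrl2, and 3 higher and 0 lower against cntrl1. By the fold count 12 genes had every spot at least 1.5-fold higher and 4 had every spot at least 1.5-fold lower. Apart from LysE, those higher genes averaged from -0.26 to 0.22 against cntrl1. Mabi read 1.26 and 1.11 against cntrl2 but 0.00 and -0.08 against cntrl1. The syntrophin gene Syn2 read 1.22 and 0.86 against cntrl2, and 0.13 and -0.08 against cntrl1. Got1, an aspartate aminotransferase, averaged 0.90 against cntrl2 and -0.01 against cntrl1. The cytochrome P450 gene Cyp6d5 averaged 0.91 and -0.07 in the same order. The others were CG11164 (0.94 against cntrl2 and 0.22 against cntrl1), CG14889 (0.85 and -0.07), the kynurenine 3-monooxygenase gene cn of eye pigment synthesis (0.84 and 0.01), rtet (0.80 and 0.20), CG14275 (0.78 and 0.04), CG14683 (0.76 and -0.0048) and Vajk4 (0.60 and -0.26). On the lower side stood thw (-0.83 against cntrl2 and -0.59 against cntrl1), CG5568 (-0.76 and 0.13), CG6891 (-0.63 and -0.01) and the drosomycin-like gene Drsl5 (-0.61 and -0.02). CG14275, CG14889, cn, Vajk4, CG6891 and Drsl5 fell outside the naming rule and were picked after their values were seen. The largest ratios against cntrl2 belonged to a pair of spots that name no gene, 12320 (2.70) and 12980 (2.19), which stood at -0.11 and -0.05 against cntrl1. Both comparisons share the mnn++ side, and what separates the controls was not tested at this age, since the controls were set against each other only at 2-16 h.

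**Figure D2:**
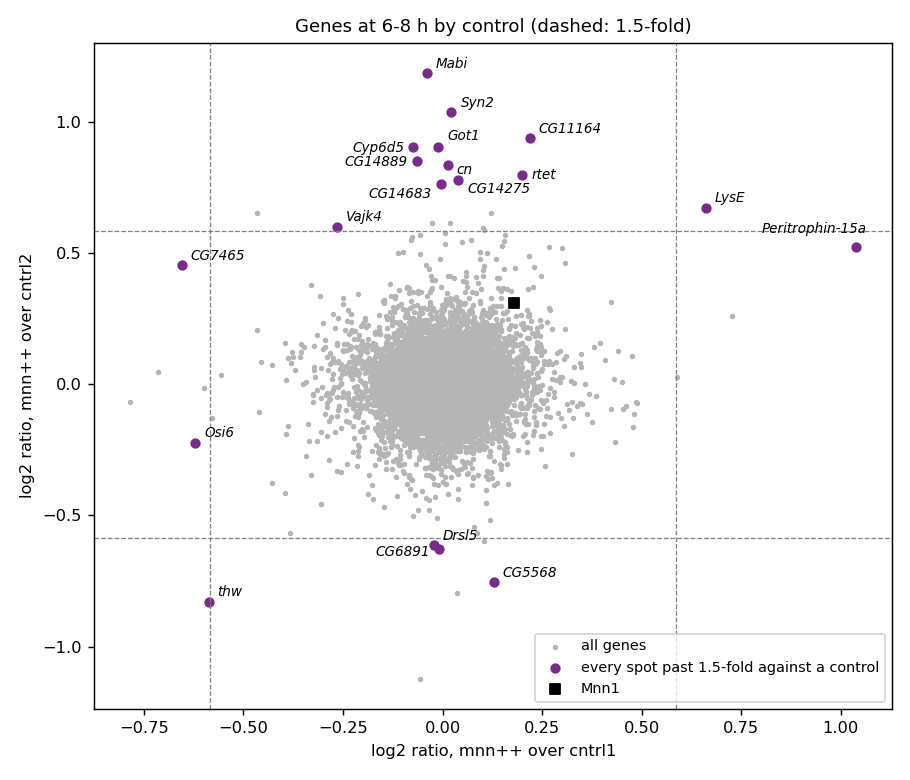
Log2 ratio of mnn++ over cntrl1 (horizontal axis) and over cntrl2 (vertical axis) at 6-8 h for 10841 genes, each the mean of its spots over both labellings; dashed lines mark 1.5-fold. LysE and thw lie past the lines on both axes, Peritrophin-15a is past it against cntrl1 alone, and a column of genes from Vajk4 up to Mabi is past it against cntrl2 with values from -0.26 to 0.22 against cntrl1.

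Several of the cntrl2 genes had similar ratios at other ages. Against cntrl2, CG11164 averaged 1.71 at 2-4 h, 0.65 at 4-6 h, 0.94 at 6-8 h and 0.91 at 2-16 h. CG5568 averaged -1.11, -0.70, -0.76 and -0.57 over the same windows, and CG14683 0.87, 0.54, 0.76 and 0.81. Mabi went another way, with 0.13, 0.92, 1.19 and 0.39. CG6891 stood at -0.02 and -0.04 in the earlier windows and at -0.63 at 6-8 h. Osi6 read 1.17 and 1.30 against cntrl2 at 2-4 and 4-6 h but -0.22 at 6-8 h, while against cntrl1 it read -0.18, -0.11 and -0.62.

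Whether an effect at 6-8 h differed from the mean effect at 2-4 h and 4-6 h was tested for each spot in the same fit. No spot passed (0 of 30377, 0%), the lowest adjusted p was 0.976, and the unadjusted p was under 0.05 for 1265 spots. The named spots are those with the smallest p in each direction, and all 12 had an adjusted p of 0.976. LysE stood at 0.19 at 2-4 h, 0.25 at 4-6 h and 0.66 at 6-8 h on spot 160, a difference of 0.44 ± 0.09 (SE). On spot 6629 thw stood at -0.05, -0.20 and -0.80, a difference of -0.67 ± 0.13. CG14110 was near 0 in both earlier windows (-0.01 and -0.07) and at -0.56 at 6-8 h on spot 33. CG8509 stood at -0.01, 0.08 and 0.42 on spot 18039, but at 0.08, 0.21 and -0.17 on its other spot. Peritrophin-15a was already high earlier against cntrl1, at 0.92 at 2-4 h and 0.44 at 4-6 h with spots averaged, and stood at 0.11 and 0.27 against cntrl2 in those windows. In the 2-16 h collection it stood at 0.05 and -0.02.

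The other spots named by that contrast were small at 6-8 h itself. The alpha-catenin relative alpha-Catr stood at -0.59, -0.31 and 0.07 in the successive narrow windows on spot 13651. CG6012 stood at 0.69, 0.23 and -0.12 on spot 14601, with 2 of 4 arrays above 0 in each earlier window. Its other spot did not show that fall, at 0.03, -0.07 and -0.02. Ntf-2, a nuclear transport factor, stood at 0.26, 0.10 and -0.18 on spot 29715, with its other spot at -0.20 at 6-8 h. CG13694 (0.25), the intraflagellar transport gene Oseg1 (0.31) and the ionotropic receptor gene Ir7g (0.16) were the other higher ones at 6-8 h. Targ1, an ADP-ribose glycohydrolase (-0.24), and SLC5A11 (-0.17) were the other lower ones. CG13694 followed its label, with -0.57 and -0.39 on arrays with mnn++ in Cy3 and 1.00 and 0.98 with mnn++ in Cy5. Ntf-2 followed its label on both spots: spot 29715 read 0.06 and 0.05 in Cy3 but -0.43 and -0.395 in Cy5. Its other spot read 0.05 and 0.09 in Cy3, and -0.48 and -0.46 in Cy5. On spot 13651 alpha-Catr read 0.36 and 0.37 in Cy3, and -0.14 and -0.31 in Cy5. Ir7g read 0.33 and 0.30 in Cy3, and 0.02 and -0.02 in Cy5, on spot 3345.

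**Figure D3:**
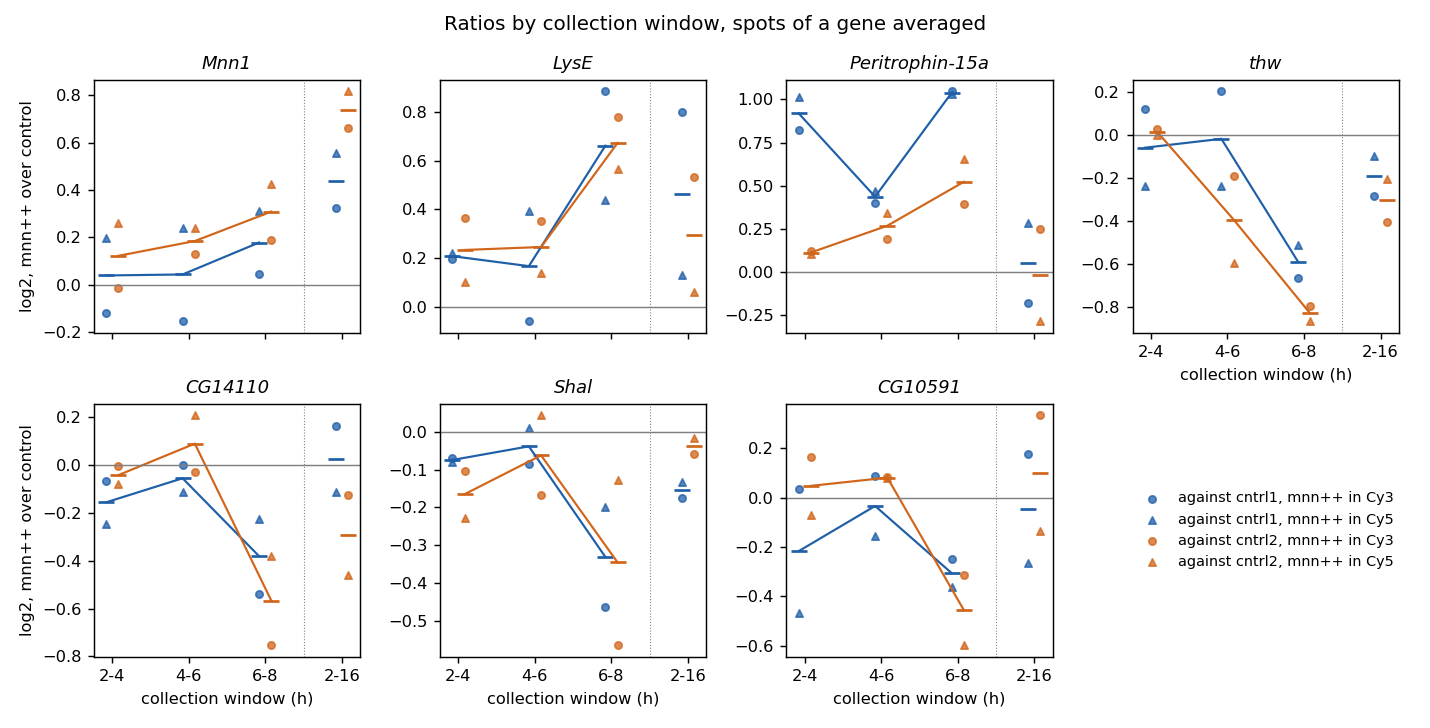
Log2 ratio of mnn++ over control (vertical axis, scaled per gene) in each collection window (horizontal axis, hours), spots of a gene averaged. Points are single arrays (circles mnn++ in Cy3, triangles mnn++ in Cy5), dashes are means over the labellings, blue against cntrl1 and orange against cntrl2; lines join the narrow windows. LysE is highest and thw, CG14110, Shal and CG10591 lowest at 6-8 h among the narrow windows, against either control. Apart from Mnn1, the genes shown are those that an alternative fit called at 6-8 h, a choice that favours an extreme value there. No spot passed the limma contrast of 6-8 h with the earlier narrow windows.

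Pathway and tissue lists were described next by their counts and medians, beside all genes, whose median was 0.0009 against the mean of the controls and of which 50.5% were above 0. Of 490 entries in 34 lists 351 were measured, which are 347 different genes. None had a spot past the limma threshold in either direction. With spots averaged 1 passed, LysE, and 27 (7.78%) had an unadjusted p under 0.05, 13 higher and 14 lower in mnn++, where 5.67% of all genes did. On all 4 arrays 21 of the 347 were above 0 and 19 below, beside 593 and 540 of all 10841 genes (5.47% and 4.98%). In whole-embryo RNA, fewer cells of a type and less RNA per cell cannot be told apart, and these ratios carry no absolute level.

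Genes of menin's own complex and its opponents lay near 0. In the menin and H3K4 methylation complex list, 5 of 10 members were above 0, with a median of -0.004. After Mnn1 (0.24) came Ptip (0.11), ash2 (0.06) and the H3K27 demethylase gene Utx (-0.05). The Polycomb group, which keeps homeotic genes silent, had 5 of 8 above 0, a median of 0.01 and values from -0.10 (Asx) to 0.08 (Sce). Of the Hox genes, 1 of 4 measured members was above 0. Antp read -0.20 and -0.27 against cntrl1, and 0.02 and -0.12 against cntrl2, and averaged -0.14 ± 0.06 (SE, limma adjusted p = 0.859 with spots averaged), the largest size among them. Pb stood at 0.10, Dfd at -0.08 and Scr at -0.03.

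Segmentation genes, which lay out the body plan, also stayed small. Gap genes had 3 of 7 above 0 (median -0.02, Kr lowest at -0.16), and pair-rule genes 5 of 7 (median 0.06, ftz at 0.10 and eve at 0.09). Segment polarity genes had 3 of 10 above 0 (median -0.04). Their largest members moved with the dye. En, which marks posterior compartments, read 0.23 (mnn++ in Cy3) and -0.48 (Cy5) against cntrl1, and 0.40 and -0.67 against cntrl2. The averages of en (-0.13), smo (-0.13) and ci (-0.10) are each small remainders of opposite readings.

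Among the signalling lists, the kinases, regulators and AP-1 factors of the JNK list had 3 of 8 members above 0 and a median of -0.02. The kinase gene Mkk4 stood at -0.13, the phosphatase and pathway target puc at -0.08, bsk, which encodes JNK, at -0.05, and slpr at -0.05. TGF-beta and BMP signalling had 5 of 12 above 0 (median -0.01), with the effector Mad at 0.12, the receptors sax at -0.12 and tkv at -0.10, and the protease tld at 0.11. The EGF receptor list had 2 of 9 above 0 and a median of -0.08, which was -0.20 against cntrl2 and -0.004 against cntrl1. Its repressor aop stood at -0.20, and the feedback inhibitors kek1 at -0.17 and aos at -0.15, with kek2 at -0.14. Kek1 was below 0 on all 4 arrays, from -0.49 to -0.01. The Notch list behaved alike: 4 of 11 above 0, with a median of -0.06, of -0.21 against cntrl2 and 0.03 against cntrl1. Its lowest member was the target E(spl)mdelta-HLH at -0.15, negative on all arrays, followed by fng and bib (both -0.13) and E(spl)malpha-BFM (-0.12). Toll and dorsal genes had 6 of 12 above 0 and a median of 0.0006. The receptor gene Tl read 0.17 and -0.01 against cntrl1, and -0.24 and -0.85 against cntrl2. Its inhibitor cact stood at 0.11.

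Markers of the embryo's tissues had small medians, several of which differed with the control. Of all 347 listed genes 144 were above 0 and 203 below. Neuroblast and neuron markers had 5 of 18 above 0 (median -0.03, which was 0.03 over cntrl1 and -0.09 over cntrl2), with wor at -0.15, ind at -0.12 and elav at 0.13. The proneural gene ase averaged -0.18 but followed its label: 0.32 (mnn++ in Cy3) and -0.41 (Cy5) against cntrl1, and 0.08 and -0.72 against cntrl2. None of the 7 glial markers was above 0 (median -0.03, nrv2 lowest at -0.15). Neuronal channels and synaptic genes had 9 of 15 above 0 (median 0.01), with Shal apart at -0.34 and the rest between -0.03 and 0.09. Mesoderm and myoblast markers had 2 of 11 above 0 (median -0.05, which was -0.01 over cntrl1 and -0.09 over cntrl2), among them lmd (-0.15), nau (-0.12) and bap (-0.11). Tracheal markers had 2 of 7 above 0 (median -0.07, tgo at -0.13 and vvl at 0.09), and their median was -0.10 over cntrl1 and 0.02 over cntrl2. Endoderm and gut markers had 3 of 6 (median -0.01, fkh at 0.12 and srp at -0.10) and salivary gland markers 4 of 5 (median 0.03). Haemocyte and basement membrane genes had 7 of 16 (median -0.03), with the phagocytosis receptor NimC1 at 0.14 and above 0 on all arrays. Amnioserosa and dorsal epidermis markers had 2 of 10 (median -0.02), and Ance, a peptidase, read -0.16 and was negative on all arrays.

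Genes of later development differed with the control. None of the 7 sarcomere genes measured was above 0 in the mean (median -0.11), but their median was -0.26 against cntrl1 and 0.04 against cntrl2. Mlc2, a myosin light chain, read -0.16 and -0.60 against cntrl1, and 0.41 and -0.16 against cntrl2. Within each pair the Cy5 labelling gave its lower reading, so Mlc2 differed with the label as well. Tm2, a tropomyosin, averaged -0.28 against cntrl1 and 0.04 against cntrl2. Cuticle and late epidermis genes had 3 of 15 above 0 (median -0.03), and the control moved it: -0.10 over cntrl1, 0.06 over cntrl2. Edg78E (-0.14) and ple (-0.07), the tyrosine hydroxylase of cuticle tanning, were negative on all arrays. The Osiris family, a list chosen after values were seen, had 9 of 23 above 0, a median of -0.07 against cntrl1 and 0.03 against cntrl2, with Osi6 at -0.42, Osi7 at -0.28 and Osi21 at 0.25. In a similarly chosen list of imaginal disc genes, ImpE2 (-0.41) and ImpL1 (-0.35) stood apart from ImpE1 and ImpE3 (both -0.02). Among peritrophin and obstructor genes, also listed after values were seen, Peritrophin-15a at 0.78 was alone, with the other 10 measured members from -0.17 to 0.06.

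Genes of earlier development were mixed. Germ cell and maternal genes had 10 of 15 above 0, a median of 0.06 and like medians against cntrl1 (0.06) and cntrl2 (0.05). Smg, which drives the clearance of maternal RNA, averaged 0.23 and read from 0.14 to 0.28 over the arrays. Bcd (0.14) was positive on all arrays too, while png (0.17) and plu (0.17) each had 1 array below 0. Cellularization genes had 3 of 7 above 0 (median -0.01), and halo averaged -0.26, negative on every array. Cell cycle and replication genes had 7 of 18 above 0 (median -0.01). The helicase subunit gene Mcm2 averaged -0.30 ± 0.07 (SE, limma adjusted p = 0.859 with spots averaged). It followed its label: -0.45 (mnn++ in Cy3) and -0.06 (Cy5) against cntrl1, and -0.63 and -0.04 against cntrl2. The SE, taken after labellings were averaged, leaves out that gap. The meiotic phosphatase gene twe stood at 0.19, positive on all arrays.

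**Figure D4:**
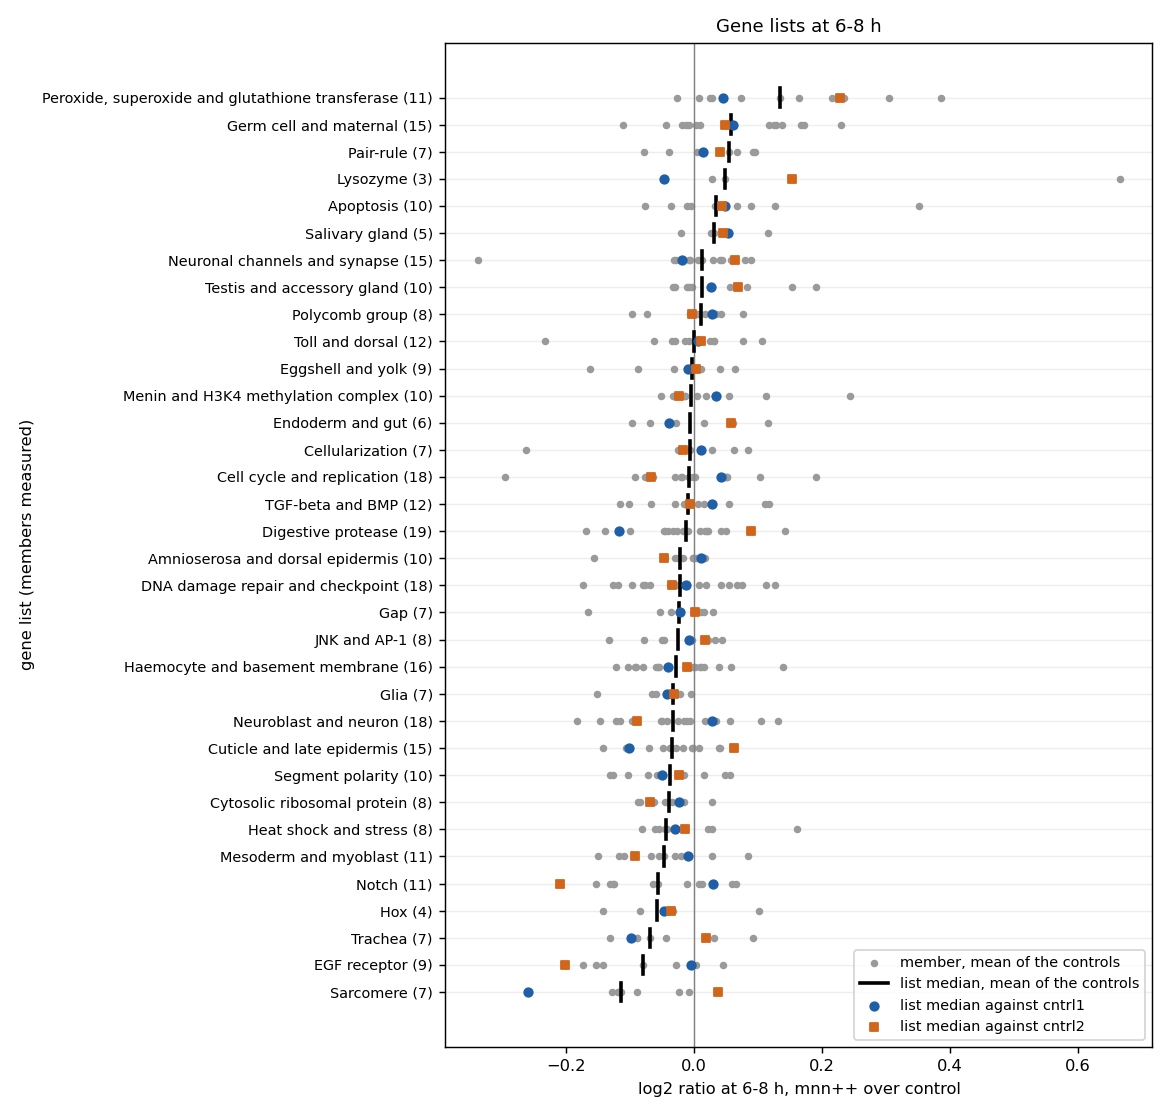
Log2 ratio of mnn++ over control at 6-8 h (horizontal axis) for the measured members of 34 gene lists (vertical axis, number measured in brackets). Grey points are members against the mean of the controls, black bars the list medians, blue circles and orange squares the medians against cntrl1 and cntrl2. Detoxification genes have the highest median (0.14) and sarcomere genes the lowest (-0.11), and the median against cntrl1 and cntrl2 was 0.05 and 0.23 in the first list, -0.26 and 0.04 in the second.

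Detoxification genes had the highest median of the lists. Of 11 peroxide, superoxide and glutathione transferase genes 10 were above 0, with a median of 0.14, but it was 0.05 against cntrl1 and 0.23 against cntrl2. Prx3 read 0.12 and 0.12 against cntrl1, and 0.55 and 0.76 against cntrl2. GstE1 averaged 0.13 against cntrl1 and 0.48 against cntrl2, GstD1 -0.01 and 0.48, and GstD4 0.06 and 0.37. Lysozymes had 3 of 3 above 0, yet LysS (0.05) and LysX (0.03) did not share the height of LysE. Digestive proteases had 8 of 19 above 0 (median -0.01), with deltaTry at -0.17 and Jon65Aiv at 0.14.

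Genes of damage and death were near the centre with single exceptions. Apoptosis genes had 6 of 10 above 0 and a median of 0.03. The initiator caspase gene Dronc read 0.38 and 0.06 against cntrl1, and 0.66 and 0.32 against cntrl2, a mean of 0.35 ± 0.17 (SE, limma adjusted p = 0.884 with spots averaged). Strica, another caspase gene, stood at 0.13 with all arrays above 0. DNA damage repair and checkpoint genes had 8 of 18 above 0 (median -0.02), with the helicase gene Blm at -0.17, mre11 at 0.13, its partner rad50 at -0.13 and okr at -0.12. Heat shock and stress genes had 3 of 8 above 0 (median -0.04), Hsp27 being highest at 0.16. Cytosolic ribosomal protein genes had 1 of 8 above 0 (median -0.04, from -0.09 to 0.03).

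Transcripts typical of adult tissue were also near 0. Eggshell and yolk genes had 4 of 9 above 0 (median -0.003), and testis and accessory gland genes 5 of 10 (median 0.01), with tomboy20 at 0.15.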

How the data were processed

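The authors deposited 1 table of log2 ratios for 18 two-colour embryo arrays, and the submitters' processing notes name limma 2.12.0 as their tool. No header states the log base, the sign or the normalization, and log2 is the limma convention. All columns were multiplied by -1 so that positive means more signal in mnn++. The basis was the Cy5 over Cy3 convention and a positive Mnn1. Spot 12320 fixed only the orientation of dye swaps. Genes are named from the platform annotation, with symbols updated through gene identifiers. The files name no assembly, so no coordinates are given. The single-channel adult arrays were not used here.

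Of 31464 spots 1008 were empty and 79 lacked a value on an array, which left 30377 tested. Of these, 25148 name 1 gene (24190 matched to a current gene), 146 several and 5083 none. Every one of the 10841 genes has at least 2 spots. Array number limits the precision, since ratios carry no count of molecules.

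Dye orientations were averaged to 8 comparisons, 4 windows by 2 controls. limma 3.58.1 (lmFit, eBayes) in R 4.3.3 fitted a coefficient per window, with 4 residual and 6.23 prior degrees of freedom. Two-sided p-values were adjusted by Benjamini-Hochberg over all spots, with a threshold of 0.05. The spread is that between the controls of a window and leaves out the spread of mnn++ RNA. A contrast set 6-8 h against the mean of 2-4 and 4-6 h. For single controls, spots past 1.5-fold with both labellings of 1 sign were counted without a test, and a limma fit on single arrays was an alternative. The fit was tested on simulated data. Tables and figures used Python 3.11.15, pandas 2.3.3, numpy 2.4.6 and matplotlib 3.10.9.

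Genes were named by rule: Mnn1; the 15 highest and 15 lowest means among single-gene spots of 1 sign on all 4 arrays; 6 per direction for each control; 6 per direction by p for the contrast; at most 4 per list by size. A list member's value averages its spots. The experiment, the 34 lists and the rules were chosen with earlier results of these data known, and 3 further lists (Osiris, Imp, peritrophin) after these values were seen. The alternatives covered single arrays as values, a control term, scaling, averaging of spots, robust eBayes, missing values, fewer windows, each array left out and dye swaps read as not yet turned.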

Additional observations from a re-analysis of the deposited data

Results flagged for a closer look

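At 6-8 h 3 named spots lay on 1 side of 0 on all 4 arrays and on the opposite side on all 4 arrays of an earlier window. Spot 16292 of Sirt2, a sirtuin deacetylase, averaged -0.39 at 6-8 h and 0.12 at 2-4 h. Its 6-8 h mean leans on array 83, at -1.16, and its other spot averaged -0.01. Spot 2039 of the intraflagellar transport gene Oseg1 averaged 0.31 at 6-8 h, -0.15 at 2-4 h and -0.14 at 4-6 h, while its other spot averaged -0.09 at 6-8 h. Spot 26438 of the ADP-ribose glycohydrolase gene Targ1 averaged -0.24 at 6-8 h and 0.33 at 2-4 h, and its other spot 0.04 at 6-8 h. The limma contrast between 6-8 h and the mean of the earlier narrow windows gave each an adjusted p of 0.976. In all 3 genes the second spot did not show the reading of the first at 6-8 h. At 2-4 h the second spot of Targ1 did, with a mean of 0.28 and all 4 arrays above 0. With 2 arrays per control, no group was large enough to look for single outlying arrays by a rule.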

How the results depend on the processing

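The number of spots past the limma threshold against the mean of the controls was 0 as fitted. It was 8 with each of the 16 arrays as its own value, 5 with the 2 dye-averaged 6-8 h comparisons alone, 2 with arrays scaled to the same spread, 1 with control as an added term and 1 gene with spots averaged first. Leaving out each array gave 0 to 1, the 1 being LysE without array 88. These calls came from LysE, thw, Peritrophin-15a, CG14110, Shal and CG10591. Under the other alternatives that keep the dye reading the count was 0, and the window contrast gave 0 in each.

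Reading dye swaps as not yet turned gave 1039 spots, a setting in which dye effects no longer cancel in the average. Under that reading Mnn1 stood at -0.10 (spot 12064) and -0.15 (spot 12724). Signs also turned for Peritrophin-15a (-0.084), rtet (-0.12), Prx3 (-0.11), CG8509 (-0.25), Tps1 (-0.075), BomS2 (-0.0885), Gal (0.48), CG14238 (0.44), Osi6 (0.17), CG10591 (0.11), Adgf-D (0.29) and Sirt2 (0.24). In the other 15 alternatives Mnn1 ran from 0.18 to 0.31 and from 0.15 to 0.35, with limma adjusted p from 0.319 to 1.0.

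The count past 1.5-fold against the mean of the controls was 9, and 1 past 2-fold, 17 with no requirement on sign, 4 with spots averaged and 13 to 25 without 1 array. Against cntrl1 it was 41, and 4 past 2-fold, 9 with spots averaged and 171 to 302 on a single labelling. Against cntrl2 it was 83, and 10 past 2-fold, 25 with spots averaged, 51 with swaps not turned and 324 to 740 on a single labelling. A limma fit on 16 arrays as own values, with a level per window and control, called 3 spots against cntrl1 and 55 against cntrl2 (33 higher, 22 lower). That fit takes labellings of 1 pairing as replicates.

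A single array can carry a mean here, 2 controls give the spread, and signal over background is not in the table. The cause of calls gained under other fits was not tested.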
